A study of Mus musculus with 12 samples.

Results

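Basal keratinocytes sorted from back skin on integrin α6 (ITGA6+ cells) were compared between K14ΔNLef1 and wild-type (WT) mice across all genes that had a single symbol on the array. The comparison used 6 of the 12 exon arrays of the series, namely the 3 arrays titled ITGA6 positive from K14ΔNLef1 epidermis and the 3 from WT epidermis. The other 6 arrays held CD34+ITGA6+ cells, the gate for bulge stem cells, from the same genotypes. All mice were female and 9.5 weeks old, an age at which the study places hair follicles in the resting phase (telogen) and the transgenic skin phenotype as not yet complete. In K14ΔNLef1 mice the keratin 14 promoter, which is active in basal keratinocytes, drives a Lef1 that lacks the amino terminus, while the endogenous Lef1 gene remains. WT mice carry no such transgene, and no other allele or agent is given for either group. By their titles, the 3 arrays per group are biological replicates, but whether each stands for 1 mouse or a pool is left unsaid.

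Lef1 is a DNA-binding protein of the Lef/Tcf family that places Wnt signals on chromatin. Its amino terminus binds β-catenin, the coactivator that Wnt ligands stabilise, and without β-catenin Lef/Tcf proteins recruit Tle (Groucho) corepressors. Basal keratinocytes rest on the basement membrane, divide to maintain the epidermis and also act as sentinels that sense cytokines. The transgenic form used here keeps the DNA-binding domain but cannot bind β-catenin, and the comparison asks which genes differ in basal cells that carry it.

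The labels were first checked against the genes that define them. Lef1 gave 6.24, 6.40 and 5.99 (log2 intensity) on the WT arrays and 12.71, 12.55 and 12.68 on the K14ΔNLef1 arrays. The groups lay far apart, as the genotype labels require, although the array does not separate transgenic from endogenous transcripts. Cd34 was at 5.37 ± 0.12 in WT and 5.33 ± 0.23 in K14ΔNLef1 (mean ± SD, n = 3 in each), below the array medians of 7.48 to 7.63, and Itga6 was at 11.69 ± 0.16 and 11.60 ± 0.15. A description field of these samples calls them bulge cells, which the Cd34 level goes against, so the titles were followed. The 6 markers of basal keratinocytes (among them Krt5, Krt14, Itgb4 and Trp63) were all above the array medians, with a mean per array of 11.45 to 11.57 in WT and 11.41 to 11.48 in K14ΔNLef1, and none was called. All markers of melanocytes (7 of 7), Langerhans and other myeloid cells (6 of 6), endothelial cells (5 of 5), Merkel cells (3 of 3) and smooth muscle (5 of 5) had means under the array medians, as did 5 of 6 fibroblast markers and 3 of 4 T cell markers. The myeloid markers averaged 5.51 to 5.80 per array in WT and 5.79 to 6.41 in K14ΔNLef1, and the part of such cells in any result was not tested.

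Of 11287 genes measured, 5712 were tested, having exceeded the array's overall probe set median on 3 or more of the 12 arrays. At an adjusted p under 0.05 (limma, two-sided, Benjamini-Hochberg over all genes tested), 303 genes were called, or 5.3% of those tested. Of these, 119 were higher (2.08%) and 184 lower (3.22%) in K14ΔNLef1, and 872 genes had an unadjusted p under 0.05. Changes of at least 2-fold were found for 91 of the genes that rose and 125 of those that fell, and changes of at least 4-fold for 28 in each direction. The arrays of the 2 genotypes did not overlap for any of the 303, against 22.6% of all genes tested. Calls and overlap rest on the same values, so a call favours such separation and the separation adds no independent support. A gene's value is the median over its probe sets, which cover separate exons. For 199 of the 297 called genes with more than 1 probe set, all probe sets differed in the same direction. The median share of probe sets in the direction of the gene was 100% for called genes and 73.3% for all genes tested. Because the gene value comes from these probe sets, such agreement is partly built in. The lower of the 2 groups had a mean of 7.63 or less, that is at or under the array medians, for 86 of the genes that rose and 97 of those that fell, so their intensity ratios need not equal ratios of transcript number. Left out in turn, WT replicate 3 reduced the calls to 197 and K14ΔNLef1 replicate 3 reduced them to 193. In bulk cells, fewer cells that express a gene and less RNA per cell cannot be told apart.

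**Figure D1:**
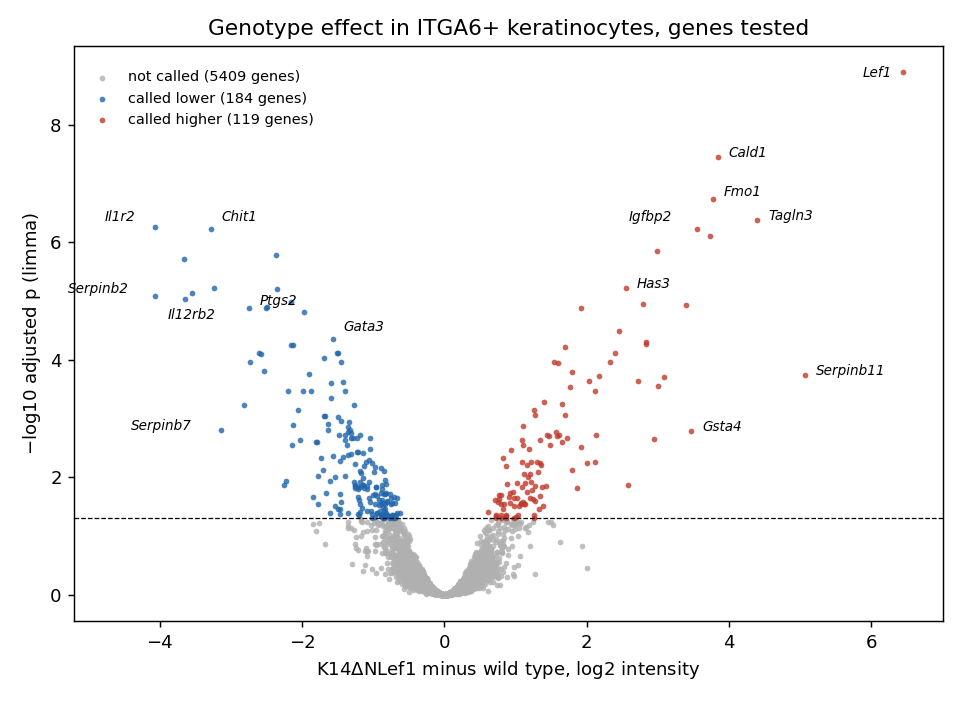
Difference between genotypes (x axis, K14ΔNLef1 minus WT, log2 intensity) against -log10 of the adjusted p (y axis) for the 5712 genes tested in ITGA6+ cells. The dashed line marks an adjusted p of 0.05, and 119 genes called higher (red) and 184 called lower (blue) lie above it, with Lef1 at the upper right.

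Receptors for cytokines and chemokines supplied 4 of the 15 lowest differences. Of 25 tested interleukin and chemokine receptor genes, 9 fell and 1 rose, beside 3.22% and 2.08% of all genes, and the median difference of the list was -0.46 (log2) beside -0.034 for all genes tested. Il1r2, which encodes a decoy receptor that binds interleukin-1 without signalling, gave 10.33, 10.85 and 10.88 on the WT arrays and 7.14, 6.44 and 6.32 on the K14ΔNLef1 arrays. Every K14ΔNLef1 array was below the array medians and every WT array well above them, a 16.6-fold fall (difference -4.06 ± 0.27, SE, adjusted p = 5.45e-07). Il20ra, a subunit of the receptors for interleukins 19, 20 and 24, gave 9.54, 9.91 and 10.17 in WT against 6.09, 6.38 and 6.16 in K14ΔNLef1. Il12rb2, the signalling subunit of the interleukin-12 receptor, gave 9.55, 9.94 and 9.60 against 6.16, 6.01 and 5.99. They fell 12.7-fold and 12.5-fold with no overlap, and all 10 probe sets of Il20ra and all 17 of Il12rb2 were lower. Ackr2, a scavenging receptor that removes inflammatory CC chemokines, gave 9.36, 9.78 and 9.86 in WT and 7.12, 6.0 and 6.21 in K14ΔNLef1, and its 3 probe sets were all lower.

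The remaining receptors that fell did so by smaller amounts and stayed above the array medians in both genotypes, except Il22ra2. Il1r1, the signalling receptor for interleukin-1, went from 9.42 ± 0.24 to 8.45 ± 0.20. Ifngr1, the ligand-binding chain for interferon-γ, went from 10.21 ± 0.38 to 9.06 ± 0.40, and its lowest WT array (9.77) was close to its highest K14ΔNLef1 array (9.51). Il6st, the signal transducer gp130 that the interleukin-6 family shares, fell by 0.82 on the log2 scale, and Il4ra, the receptor chain for interleukins 4 and 13, fell by 0.83. Il22ra2, a secreted protein that binds interleukin-22, went from 8.36 ± 0.27 to 6.89 ± 0.58. In the opposite direction Il22ra1, the membrane receptor chain for interleukin-22, rose from 8.01 ± 0.06 to 9.06 ± 0.03, the only member of the list to rise. These 6 smaller calls were each lost when at least 1 array was left out, with adjusted p of at most 0.154, and the number of receptors that fell then ranged from 4 to 8. Without K14ΔNLef1 replicate 3 it was 4, and without WT replicate 1 or WT replicate 3 it was 5.

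Cytokine genes themselves were mostly at or under the array medians: 6 of 32 measured were tested. Il33, an alarmin stored in the nucleus of epithelial cells, gave 9.0, 9.88 and 9.24 in WT and 7.07, 6.31 and 6.54 in K14ΔNLef1 (difference -2.73 ± 0.32, adjusted p = 0.000109). Il34, the keratinocyte ligand of the Csf1 receptor on which Langerhans cells depend, gave 9.11, 8.97 and 9.14 against 7.62, 7.58 and 7.10. Neither gene's groups overlapped. Of the interferon response, 1 of 6 tested genes was called, where 5.3% of all genes tested were. This gene was Ddx58 (the RNA sensor RIG-I), which went from 7.04 ± 0.11 to 8.06 ± 0.15. That call was lost without any of 3 arrays, with adjusted p up to 0.0545.

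Genes of prostaglandin synthesis and transport showed changes in both directions: of 13 tested, 4 fell and 1 rose, against 3.22% and 2.08% of all genes tested. Ptgs2, the inducible cyclooxygenase that commits arachidonic acid to prostaglandins, gave 7.55, 7.58 and 7.04 in WT and 4.91, 4.95 and 4.06 in K14ΔNLef1. Its WT level was already at the array medians, and all 13 probe sets were lower in K14ΔNLef1 (difference -2.75 ± 0.26, adjusted p = 1.34e-05). Slco2a1, a prostaglandin uptake transporter, went from 10.17 ± 0.13 to 8.55 ± 0.38, and Hpgds, a prostaglandin D2 synthase, from 8.39 ± 0.82 to 6.54 ± 0.32. Anxa1 (annexin A1), which restrains phospholipase A2, fell by 0.85. The calls of Hpgds and Anxa1 were each lost when any of 4 arrays was left out, with adjusted p up to 0.0987 and 0.0817. Pla2g4c, a cytosolic phospholipase A2, rose instead, from 5.21, 5.62 and 5.18 in WT to 9.50, 8.89 and 8.82 in K14ΔNLef1. Its 12 probe sets were all higher, and the 13.3-fold difference ran from under to over the array medians.

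**Figure D2:**
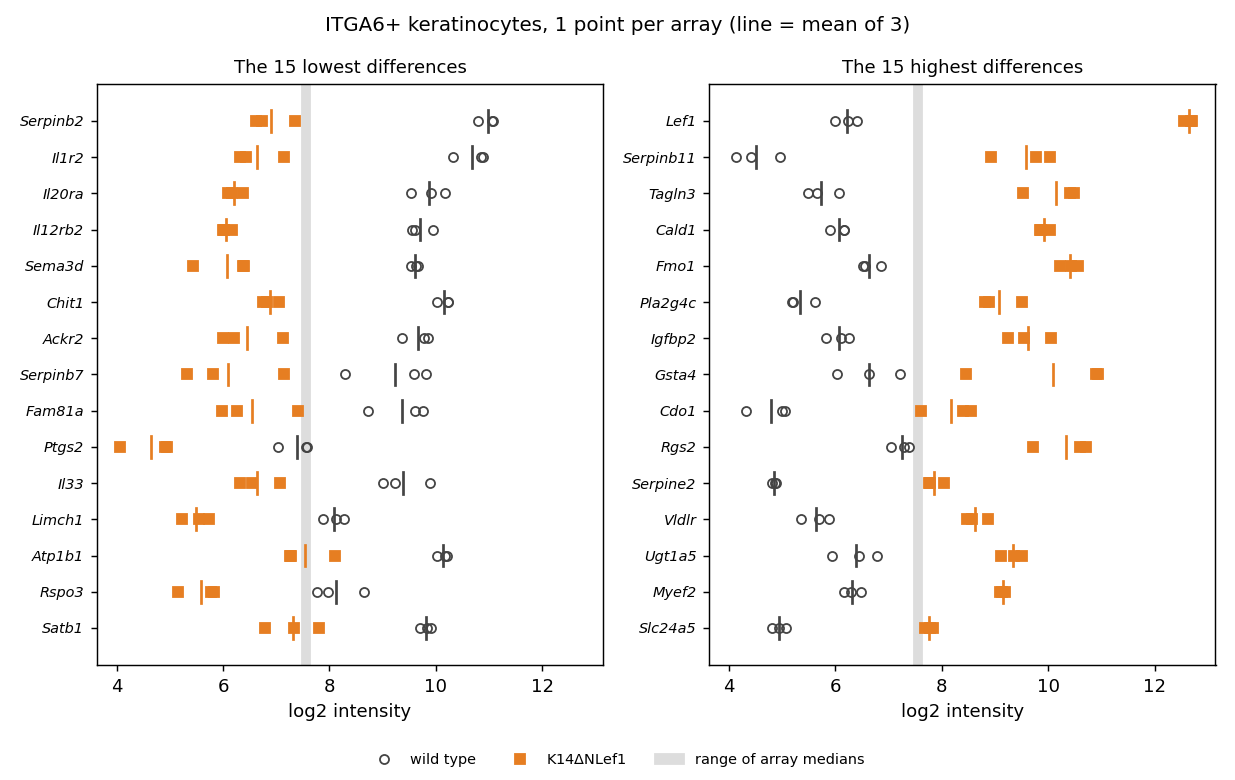
Log2 intensity on each of the 6 ITGA6+ arrays for the 15 called genes with the lowest (left) and the 15 with the highest difference (right). WT arrays (open circles) and K14ΔNLef1 arrays (filled squares) do not overlap for any gene shown, and vertical lines mark the mean of 3 arrays. The grey band is the range of array medians, 7.48 to 7.63.

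Enzymes that conjugate or oxidise foreign and reactive compounds rose where they were called: 7 of 31 tested rose and none fell, beside 2.08% and 3.22% of all genes tested. Across the alternatives tried, 2 to 8 rose and 0 or 1 fell. With a filter at the upper quartile, 2 of 15 tested rose and 1 fell. Fmo1, a flavin-containing monooxygenase, gave 6.51, 6.56 and 6.85 in WT and 10.43, 10.56 and 10.22 in K14ΔNLef1, a 13.6-fold rise (adjusted p = 1.87e-07). Cdo1, the dioxygenase that starts cysteine breakdown, gave 4.99, 5.05 and 4.31 against 8.54, 8.40 and 7.60. Gsta4, a glutathione S-transferase that acts on products of lipid peroxidation, gave 7.21, 6.64 and 6.03 against 10.93, 8.46 and 10.90, so that K14ΔNLef1 replicate 2 stood apart from the other two. Further members that rose were Gsta3 (2.11 ± 0.28, SE), Mgst1 (2.13 ± 0.35), Gstm2 (1.72 ± 0.29) and Akr1b8, an aldo-keto reductase (1.27 ± 0.28), whose call was lost without either of 2 arrays (adjusted p up to 0.0753). The median of the list was 0.03, so the rise was carried by these 7 genes and not shared by the list. Gsta3 and Gsta4 belong to a family of similar sequences, and probe sets that read more than 1 member were not separated here. Ugt1a5, a UDP-glucuronosyltransferase, rose by 2.94 ± 0.50 on a single probe set, and the genes of its locus share exons. Nfe2l2, which encodes the regulator Nrf2 of many such enzymes, was at 9.72, 9.67 and 10.17 in WT and at 10.14, 9.49 and 9.46 in K14ΔNLef1, and the groups overlapped. It was looked up after these results were seen.

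Serpins, a family of protease inhibitors and related proteins, included both the highest and the lowest difference of any endogenous gene. Of 10 tested, 2 rose and 3 fell, beside 2.08% and 3.22% of all genes tested. Serpinb11 gave 4.41, 4.95 and 4.14 in WT and 10.04, 8.92 and 9.76 in K14ΔNLef1, a difference of 5.07 ± 0.63 (33.6-fold) that all 9 probe sets shared in direction. Serpinb2, the plasminogen activator inhibitor PAI-2, gave 10.79, 11.07 and 11.05 against 7.36, 6.61 and 6.73, a difference of -4.07 ± 0.36 with all 8 probe sets lower. Serpinb7 gave 8.30, 9.59 and 9.81 against 5.82, 7.14 and 5.32. WT replicate 1 was the lowest WT array and K14ΔNLef1 replicate 2 the highest transgenic one, and these 2 still did not overlap. Serpinb8 went from 10.03 ± 0.23 to 8.83 ± 0.51, a call lost when any of 3 arrays was left out (adjusted p up to 0.117). Serpine2, the thrombin and plasminogen activator inhibitor protease nexin-1, lies outside the clade B genes and rose from 4.85 ± 0.05 to 7.86 ± 0.16.

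The clade B serpins that changed are neighbours. Among 5699 tested genes placed in the RefSeq table of assembly GRCm38.p6, which was used here only for the order of genes, 22 of 5679 neighbouring pairs had both genes called, in 17 runs. Of the 604 neighbours of called genes 44 were called themselves (7.3%), near the 5.3% of all genes tested, so the pairs are given as a description of where these genes lie. In 17 of these pairs the genes changed in the same direction (7 pairs up) and in 5 in opposite directions. Serpinb11, Serpinb7, Serpinb2 and Serpinb8 follow each other among the tested genes, with differences of 5.07, -3.14, -4.07 and -1.20. Serpinb5 (maspin), next to Serpinb11, was -0.65 ± 0.18 with an adjusted p of 0.0537. Serpinb11, with the highest difference after Lef1, thus lay directly beside one of the 15 lowest differences, and the genes beyond the cluster (Vps4b, Kdsr, Tsn) differed by -0.37, -0.16 and -0.21.

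A second run held receptors: Ifngr1 (-1.15), Il22ra2 (-1.47), Il20ra (-3.66) and Pex7 (-0.87), the last a peroxisomal import receptor, all fell. Tnfaip3, the nuclear factor κB feedback inhibitor on one side of them, was -0.81 ± 0.27 (adjusted p = 0.125), and Map7 on the other side was -0.07 ± 0.21. Il1r2 and Il1r1 were also neighbours and both fell, and Il1rl2, the receptor for interleukin-36 next to them, was -0.49 ± 0.18 (adjusted p = 0.179). In a run of 3, Cd200, an immunoregulatory surface protein also used as a bulge marker, fell from 8.45, 7.34 and 8.60 to 5.58, 5.96 and 6.77. Beside it Tagln3 rose by 4.40 and Nectin3, a cell adhesion protein, rose from 6.11, 6.13 and 6.43 to 9.30, 8.18 and 8.53. Hoxc6 and Hoxc5, whose transcripts can share exons, rose by 0.98 and 1.54, and the calcium-binding S100a3 and S100a4 by 1.69 and 1.40. Slc24a5 and Myef2 rose by 2.83 each and are the only pair of the 22 whose RefSeq gene spans overlap, so their probe sets may read the same transcripts. These neighbouring genes were picked after their values were seen.

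**Figure D3:**
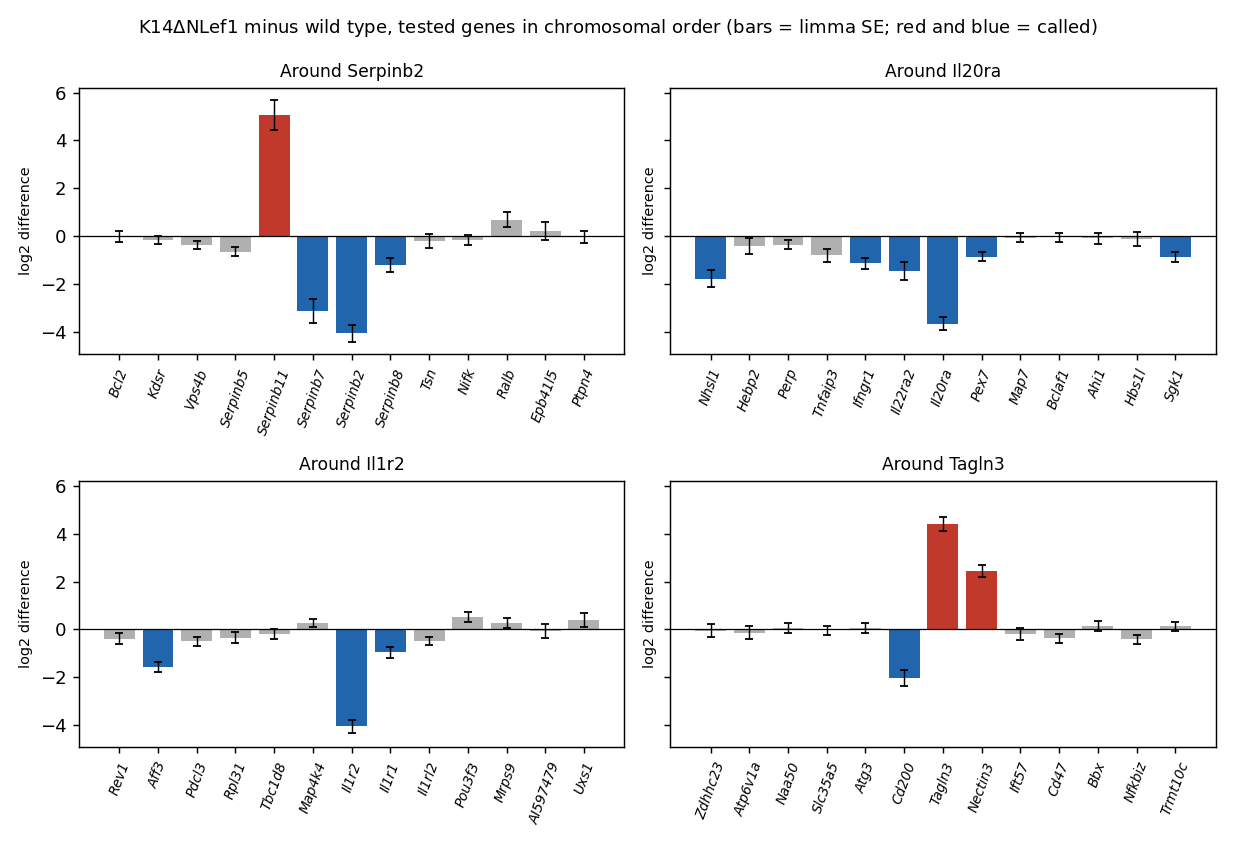
Difference between genotypes in ITGA6+ cells (y axis, K14ΔNLef1 minus WT, log2, bars with SE) for tested genes in chromosomal order around Serpinb2, Il20ra, Il1r2 and Tagln3. Coloured bars are called genes, higher in red and lower in blue, and grey bars are not called. Serpinb11 (5.07) stands next to Serpinb7 (-3.14), and Cd200 (-2.03) next to Tagln3 (4.40).

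Genes linked to the actin cytoskeleton supplied 2 of the 15 highest differences. Tagln3, a transgelin family member linked to actin, gave 5.66, 6.06 and 5.48 in WT and 10.48, 10.41 and 9.52 in K14ΔNLef1 (21.1-fold, adjusted p = 4.2e-07). Cald1 (caldesmon), which regulates actomyosin, gave 6.16, 6.16 and 5.90 against 10.03, 9.85 and 9.86 with an SE of 0.19. In both cases transgenic levels were well above the medians of the arrays and WT levels below them. Of 18 tested genes of the actin and contractile list 4 rose and 1 fell, beside 2.08% and 3.22% of all genes tested. The median of this list was -0.03. The others that rose were S100a4 and S100a6, calcium-binding proteins that interact with the cytoskeleton, and the one that fell was Tiam1, a Rac exchange factor, by 1.05 with all 40 probe sets lower. Of 10 tested S100 genes 3 rose and none fell, beside the same shares of all genes tested.

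In the matrix list, 3 of 35 tested genes rose and 2 fell, where 2.08% and 3.22% of all genes tested did, so the share that fell was near that of all genes. Has3, a hyaluronan synthase, gave 7.17, 7.05 and 6.54 in WT and 9.45, 9.53 and 9.42 in K14ΔNLef1 (difference 2.55 ± 0.22). Fn1 (fibronectin) rose from 7.17 ± 0.49 to 9.10 ± 0.44 with all 49 probe sets higher, and Sparc, a secreted collagen-binding protein, from 9.22 ± 0.37 to 10.55 ± 0.16. The fibroblast markers beside these matrix genes, Col1a1 and Col1a2, differed by 0.08 ± 0.16 and -0.03 ± 0.17. Itga2, the collagen receptor chain, fell by 1.15 ± 0.24, and Egfl6, a matrix protein of the upper bulge, from 8.70 ± 0.62 to 6.89 ± 0.57. Of the adhesion list, the desmosomal Dsc1 (1.43) and the P-cadherin gene Cdh3 (1.08) rose, while the desmosomal Dsg2 (-1.17) and Cdh13 (-0.92) fell. The calls of Itga2, Dsc1, Cdh3 and Cdh13 were lost without 1 or more single arrays, with adjusted p up to 0.122.

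Growth factor and guidance genes changed as single members. Igfbp2, an insulin-like growth factor binding protein, rose from 5.83, 6.25 and 6.11 to 9.54, 10.05 and 9.24, whereas its relative Igfbp3 fell from 10.47 ± 0.27 to 9.01 ± 0.44. Vldlr, the very low density lipoprotein receptor, rose from 5.69, 5.35 and 5.88 to 8.86, 8.47 and 8.56, and Rgs2, which turns off G protein signals, from 7.29, 7.39 and 7.05 to 10.59, 9.71 and 10.71. None of these groups overlapped, but the call of Igfbp3 was lost without any of 5 arrays (adjusted p up to 0.151). The secreted semaphorins Sema3d and Sema3c fell: Sema3d gave 9.63, 9.53 and 9.67 in WT and 6.37, 6.40 and 5.44 in K14ΔNLef1, and Sema3c fell by 1.88 ± 0.25. Plxna4, a coreceptor for such ligands, rose by 1.11 ± 0.17. Ntrk2, the receptor for brain-derived neurotrophic factor, went from 8.57, 8.24 and 8.67 to 6.44, 6.49 and 6.08. It was the only call among 15 tested receptor tyrosine kinases, a share near the 5.3% of all genes tested. Chit1, a chitinase, gave 10.02, 10.23 and 10.22 in WT and 7.06, 6.75 and 6.82 in K14ΔNLef1, and Atp1b1, a subunit of the sodium pump, went from 10.13 ± 0.09 to 7.55 ± 0.48. Fam81a and Limch1, the last of the 15 lowest differences outside the lists, differed by -2.81 and -2.60.

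Wnt pathway genes were examined because Lef1 is their effector. Of 24 tested ligands, receptors and inhibitors, 4 fell and 1 rose, beside 3.22% and 2.08% of all genes tested. Rspo3, a secreted amplifier of Wnt signals, gave 7.98, 7.76 and 8.65 in WT and 5.77, 5.16 and 5.83 in K14ΔNLef1. Wnt16 gave 7.80, 7.86 and 8.01 against 6.30, 6.37 and 6.54. The secreted inhibitors Sostdc1 (-1.47 ± 0.34) and Sfrp1 (-1.49 ± 0.38) fell too, and the receptor Fzd7 rose by 0.83 ± 0.21, but these last 3 calls were each lost without 1 or more single arrays (adjusted p up to 0.155). Of 17 tested Wnt and β-catenin target genes, 3 fell (Ptgs2, Tiam1 and Trim2, the last lost without any of 3 arrays with adjusted p up to 0.0628), and the 1 that rose was Lef1 itself. Axin2, a feedback inhibitor and commonly read target, was at 8.88, 8.92 and 9.33 in WT and at 8.32, 8.30 and 8.55 in K14ΔNLef1 (difference -0.65 ± 0.18, adjusted p = 0.0572). Ccnd1 (cyclin D1) was -1.35 ± 0.40 (adjusted p = 0.0679). Ctnnb1, the gene of β-catenin, rose from 9.97 ± 0.10 to 10.76 ± 0.18 with all 17 probe sets higher, a call lost without any of 5 arrays (adjusted p up to 0.0929). The corepressor Tle3 was -0.55 ± 0.21 (adjusted p = 0.196). No gene was called among 12 tested of the Notch pathway, 5 of the hedgehog pathway and 9 of the EGF receptor group, nor among 9 of the retinoid and vitamin D pathway. With 5.3% of all genes tested called, lists this short can hold no call without departing from that share. Id4, a helix-loop-helix inhibitor that responds to BMP, fell from 8.52 ± 0.07 to 7.07 ± 0.09, and Ltbp1, which holds latent TGF-β, fell by 1.18 in a call lost without any of 4 arrays (adjusted p up to 0.0571). No other gene was called among the 30 tested of the BMP and TGF-β pathway, so the share called was near the 5.3% of all genes tested.

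Transcription factors of the epidermis fell where they changed: 4 of 23 tested, against 3.22% of all genes tested. Satb1, an organiser of chromatin loops, gave 9.83, 9.71 and 9.90 in WT and 7.81, 7.33 and 6.78 in K14ΔNLef1 (difference -2.51 ± 0.24). Gata3, needed for the epidermal barrier and the hair inner root sheath, was among the most abundant genes called and gave 12.02, 11.90 and 11.78 against 10.35, 10.23 and 10.42. Ahr, the aryl hydrocarbon receptor, fell by 1.06 ± 0.20 and Klf3 by 0.89 ± 0.17. Klf4, a regulator of terminal differentiation, was -1.17 ± 0.33 (adjusted p = 0.0556). Gata6, a marker of the sebaceous duct and upper follicle, was at 7.89, 7.48 and 7.34 in WT and 7.52, 7.52 and 7.17 in K14ΔNLef1 and overlapped. Dlx5 fell by 1.61 ± 0.42, a call lost without any single array of the 6 (adjusted p up to 0.155).

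Differentiation and lineage genes changed in few members. Of 15 tested suprabasal and cornified layer genes, Calml3 (1.17), Dsc1 (1.43) and Tgm3 (1.08), a cross-linking transglutaminase, rose, and the calmodulin-like Calm5 (-2.22) and the keratin gene Krt77 (-1.53) fell. Over all genes tested, 2.08% were called higher and 3.22% lower, the shares to set beside each list of this paragraph. Krt10, the main suprabasal keratin, was at 12.68, 12.58 and 12.63 in WT and 12.08, 12.27 and 12.01 in K14ΔNLef1 (adjusted p = 0.326). Within the sebaceous and lipid list, Mgst1 (2.13) and the acetyl-CoA carboxylase gene Acaca (1.16) rose and Gpam (-0.97), which starts glycerolipid synthesis, fell, of 9 tested. Atp6v1c2, a proton pump subunit, rose from 6.93 ± 0.35 to 8.37 ± 0.07, the only call among 9 tested genes of the isthmus, junctional zone and sebaceous duct. The calls of Calml3, Dsc1, Tgm3, Krt77 and Gpam were lost in at least 2 of the alternatives tried. Thy1, written here as a T cell marker, fell from 8.34 ± 0.28 to 7.08 ± 0.16, while the T cell receptor gene Cd3e was at 6.48 to 6.53 in WT and 6.17 to 7.03 in K14ΔNLef1. Solute carriers were called in 9 of 87 tested, 7 lower and 2 higher, beside 3.22% and 2.08% of all genes tested, the share higher being near that of all genes. Among them were Slc2a12, a glucose transporter (-1.70), and Slc6a4, the serotonin transporter (-1.40). Slc24a5, an exchanger known from melanosomes, rose from 4.80, 4.94 and 5.07 to 7.78, 7.68 and 7.83, while the melanocyte markers averaged 6.22 to 6.34 per array in WT and 6.03 to 6.27 in K14ΔNLef1.

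**Figure D4:**
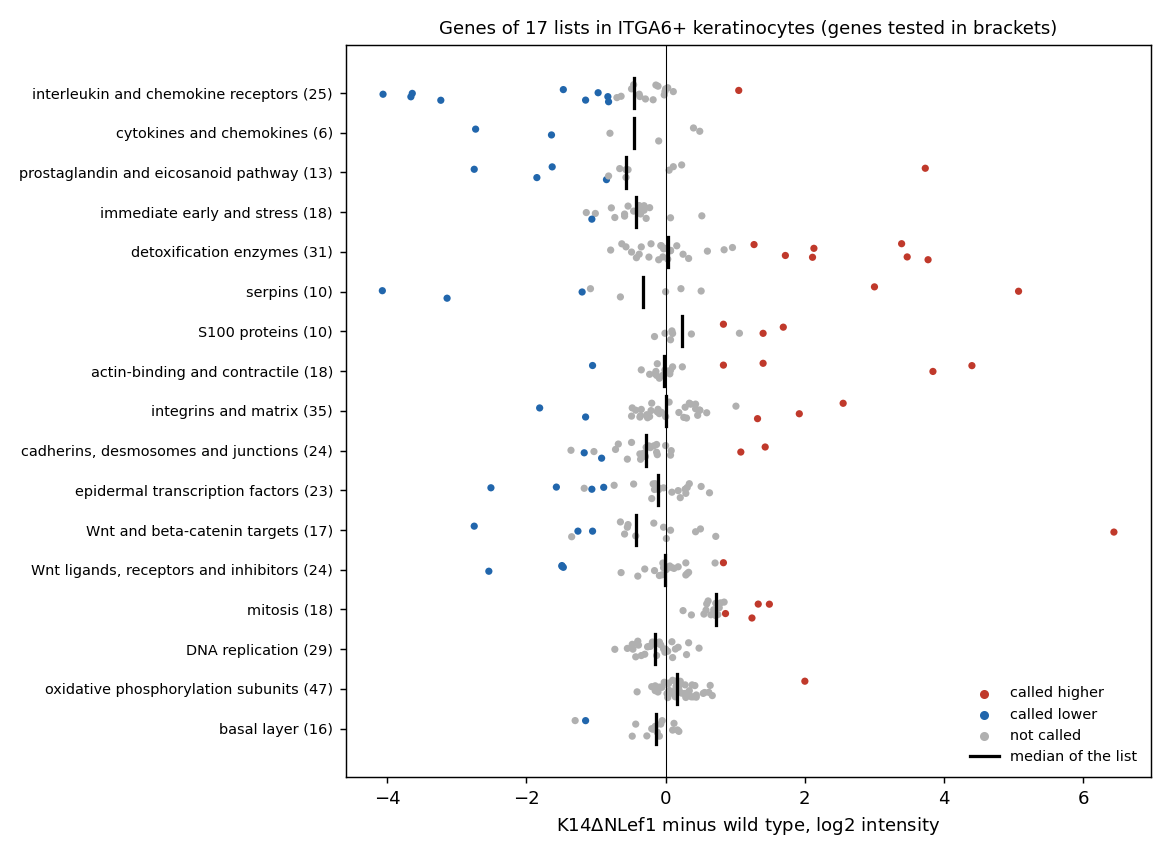
Difference between genotypes in ITGA6+ cells (x axis, K14ΔNLef1 minus WT, log2) for each tested gene of 17 lists, with the number tested in brackets. Points in red were called higher, blue lower and grey not called, and black lines are list medians. Receptors and prostaglandin genes extend to the left, detoxification enzymes to the right, and all 18 mitosis genes lie above 0.

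Genes of mitosis and of DNA replication differed in pattern. All 18 tested mitosis genes were higher in K14ΔNLef1, with a median difference of 0.72 beside -0.034 for all genes. Of the 18, 4 were called higher, beside 2.08% of all genes tested. Ube2c, the ubiquitin-conjugating enzyme of the anaphase-promoting complex, gave 8.11, 8.19 and 8.81 in WT and 9.97, 9.67 and 9.93 in K14ΔNLef1, on a single probe set. Bub1b, of the spindle checkpoint, gave 6.29, 6.95 and 6.82 against 7.92, 7.80 and 8.05. Tpx2, which activates Aurora A on the spindle, gave 6.45, 7.76 and 7.79 against 8.80, 8.49 and 8.68. The groups did not overlap, but WT replicate 1 was the lowest array for all 3. Cdk1, the mitotic kinase, rose by 0.86 ± 0.23, a call lost without any single array of the 6 (adjusted p up to 0.175). The call of Bub1b was lost without any of 5 arrays (adjusted p up to 0.0982) and that of Tpx2 without any of 4 (adjusted p up to 0.116). The number called was 3 without WT replicate 1, with Bub1b, Tpx2 and Cdk1 not among them, 3 without WT replicate 2, 2 without WT replicate 3 and 1 without any of the 3 K14ΔNLef1 arrays. It was 8 when probe sets were averaged, and the list median stayed between 0.62 and 0.81 when single arrays were left out. Of 29 tested DNA replication genes none was called, where 5.3% of all genes tested were, so few calls would be looked for in a list of this length. Of these, 9 were above 0 and 20 below, and the median was -0.15. Mcm2, a subunit of the replicative helicase, was -0.47 ± 0.20 (adjusted p = 0.252). Cdkn1a, the p21 inhibitor of cyclin-dependent kinases, fell from 9.65 ± 0.20 to 8.50 ± 0.26, a call lost without any single array of the 6 (adjusted p up to 0.139). Among 13 tested mismatch repair genes, none was called, a list too short to be set apart from the 5.3% of all genes tested. Of 18 immediate early and stress genes, 16 were lower in K14ΔNLef1 (median -0.42). Only Dusp1, a MAP kinase phosphatase, was called (-1.06 ± 0.25), a share near the 5.3% of all genes tested. That call was lost without any of 5 arrays (adjusted p up to 0.0967). Fos gave 10.15, 9.51 and 8.18 in WT and 7.64, 7.42 and 9.35 in K14ΔNLef1, so the arrays within each genotype spread widely and overlapped. Of 47 subunits of oxidative phosphorylation, 38 were above 0 with a median of 0.16. Only Cox7a2 (2.0 ± 0.38) was called, a share near the 2.08% of all genes tested called higher. It lost its call when probe sets were averaged instead (0.74, adjusted p = 0.37). The shares of all genes tested above and below 0 were not counted for comparison with the lists of this paragraph.

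Promoters were searched for the Lef/Tcf core because the transgene keeps the DNA-binding domain. The letters searched were CTTTGAT and CTTTGAA on either strand, from 250 bases before to 50 bases after each start in the RefSeq promoter table (GRCm38.p6). They were present for 14 of 89 genes called higher that had a promoter there (15.7%), 8 of 151 called lower (5.3%) and 339 of 4655 tested (7.3%). Of all genes with a listed promoter, 9.9% held them. The 15 highest differences had none in the 12 genes with a promoter, and the 15 lowest had 1 in 14, at Serpinb7. Of the 4 mitosis genes called, Ube2c, Bub1b and Cdk1 held a core (Tpx2 had no promoter in the table), as did 5 of the 15 tested mitosis genes with a promoter. Without the mitosis list the share among genes called higher was 12.8% (11 of 86). The form CTTTGAA contains TTTGAA, the letters of the cell cycle homology region of mitotic promoters, a run of letters that both motifs share. The form CTTTGAT does not contain them. CTTTGAT was present for 8 genes called higher (9.0%) and 3 called lower (2.0%), beside 3.2% of genes tested. CTTTGAA was present for 6 called higher (6.7%) and 7 called lower (4.6%), beside 4.5%. Of the called mitosis genes, Ube2c and Bub1b held CTTTGAT and Cdk1 held CTTTGAA. The promoters of the mitosis genes, of S100a3 as a strongly raised gene and of Serpinb7 are shown with the core in capitals, each written 5′ to 3′ on the strand of the gene.
Ube2c, chr2:164769679-164769978, + strand: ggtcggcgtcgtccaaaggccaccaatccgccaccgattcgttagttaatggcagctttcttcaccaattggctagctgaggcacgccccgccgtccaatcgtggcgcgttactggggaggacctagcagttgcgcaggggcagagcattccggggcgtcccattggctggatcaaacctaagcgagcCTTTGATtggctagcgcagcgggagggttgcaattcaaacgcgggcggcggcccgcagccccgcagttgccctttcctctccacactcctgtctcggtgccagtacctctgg
Bub1b, chr2:118597961-118598260, + strand: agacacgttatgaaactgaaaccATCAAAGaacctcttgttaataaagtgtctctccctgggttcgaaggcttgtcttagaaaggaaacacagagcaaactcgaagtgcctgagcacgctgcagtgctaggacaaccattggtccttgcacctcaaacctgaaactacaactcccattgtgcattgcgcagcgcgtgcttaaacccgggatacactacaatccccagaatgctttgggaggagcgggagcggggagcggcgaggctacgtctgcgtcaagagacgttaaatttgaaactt
Cdk1, chr10:69352863-69353162, - strand: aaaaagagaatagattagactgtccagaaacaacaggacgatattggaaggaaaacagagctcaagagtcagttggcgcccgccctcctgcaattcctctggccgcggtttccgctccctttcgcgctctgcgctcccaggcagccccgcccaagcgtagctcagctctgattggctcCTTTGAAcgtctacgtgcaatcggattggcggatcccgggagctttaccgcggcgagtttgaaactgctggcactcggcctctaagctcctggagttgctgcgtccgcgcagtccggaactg
S100a3, chr3:90599964-90600263, + strand: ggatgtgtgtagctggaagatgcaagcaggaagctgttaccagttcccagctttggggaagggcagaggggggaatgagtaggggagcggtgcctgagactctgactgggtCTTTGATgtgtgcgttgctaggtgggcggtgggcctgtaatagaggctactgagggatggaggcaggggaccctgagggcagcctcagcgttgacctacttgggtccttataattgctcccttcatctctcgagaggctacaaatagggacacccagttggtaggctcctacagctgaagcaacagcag
Serpinb7, chr1:107422439-107422738, + strand: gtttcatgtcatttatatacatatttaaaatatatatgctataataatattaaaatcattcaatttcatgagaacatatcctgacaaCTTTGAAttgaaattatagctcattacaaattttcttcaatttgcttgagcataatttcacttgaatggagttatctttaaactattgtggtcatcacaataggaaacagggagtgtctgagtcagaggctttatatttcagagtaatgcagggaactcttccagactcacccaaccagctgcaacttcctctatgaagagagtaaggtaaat
The core began at -62 in Ube2c, -227 in Bub1b, -72 in Cdk1, -139 in S100a3 and -163 in Serpinb7, counted from the start at 1 with no 0. In Bub1b it is on the opposite strand and reads ATCAAAG here. A match describes letters only, and no binding was measured on these arrays.

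The genotype effect in ITGA6+ cells was set against that in CD34+ITGA6+ cells to see where it differed. The difference of the effects was called for 88 genes (1.54% of those tested), and for 62 of the 303 genes called in ITGA6+ cells. The 303 were chosen on the same ITGA6+ arrays, which favours a larger effect there. For 58 of the 62 the effect was larger in ITGA6+ cells. Among the 303, the genotype difference had the same sign in CD34+ITGA6+ cells for 239, was called there in the same direction for 36 and was called there in the opposite direction for 4, where 1.91% of all genes tested were called. The share with the same sign among all genes tested was not counted. Both comparisons use different arrays, and the sources do not say whether the 2 populations came from the same mice. Lef1 rose by a like amount in both, by 6.44 and 6.07. Ptgs2 differed by -2.75 in ITGA6+ cells and -2.34 in CD34+ITGA6+ cells, with a difference of effects of -0.40 ± 0.37. Gsta4 rose by 3.47 and 3.61, and Fn1 by 1.92 and 3.36, with no call on the difference of effects (adjusted p = 0.991 and 0.247).

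The genes called in opposite directions were Ntrk2, S100a4, Sparc and Arhgap24. In CD34+ITGA6+ cells Ntrk2 gave 6.44, 6.37 and 5.74 in WT and 8.90, 8.75 and 8.29 in K14ΔNLef1, the reverse of its fall in ITGA6+ cells. S100a4 gave 12.58, 12.30 and 12.21 in WT and 10.43, 10.36 and 9.93 in K14ΔNLef1 there, so that it fell by 2.12 from a high level while it rose by 1.40 from a low level in ITGA6+ cells. Sparc fell by 1.34 in CD34+ITGA6+ cells and rose by 1.32 in ITGA6+ cells. For all 3 the levels of the 2 populations lay closer together in K14ΔNLef1 or changed order. Cald1 was at 9.66, 9.87 and 9.98 in WT CD34+ITGA6+ cells and at 9.75, 9.11 and 9.45 in the K14ΔNLef1 ones, close to the 9.85 to 10.03 that ITGA6+ cells reached in K14ΔNLef1. Tagln3, by contrast, stayed between 5.51 and 6.73 on all 6 CD34+ITGA6+ arrays. Of the receptors, Ackr2 fell by 3.23 in ITGA6+ cells and differed by -0.54 ± 0.27 in CD34+ITGA6+ cells, where no array exceeded 7.53, while Il1r2 differed by -4.06 and -2.26.

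**Figure D5:**
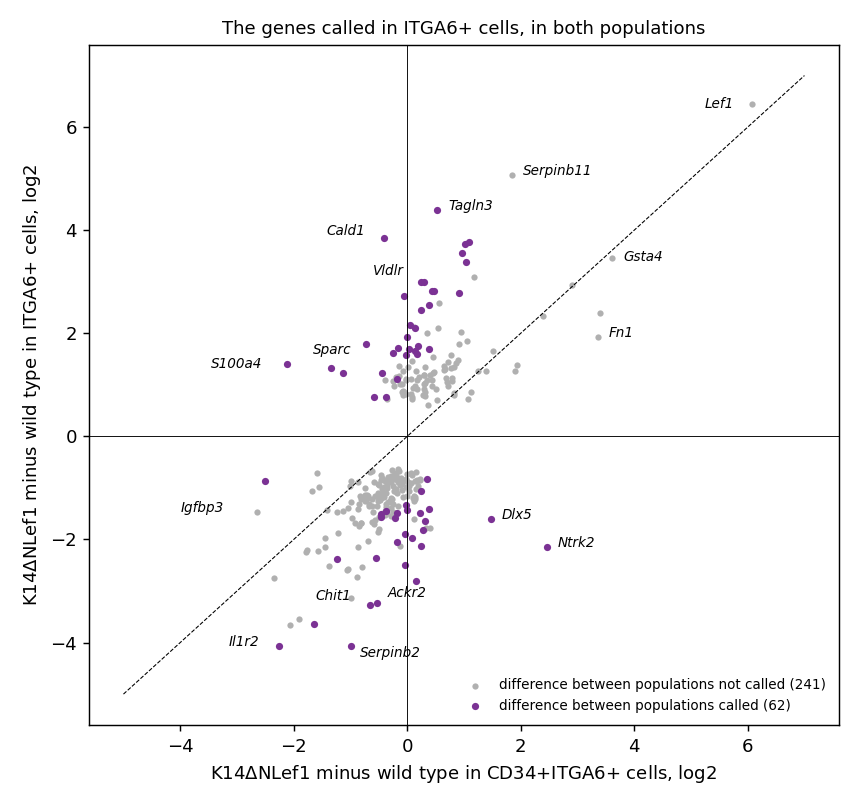
Genotype difference (K14ΔNLef1 minus WT, log2) in CD34+ITGA6+ cells (x axis) and in ITGA6+ cells (y axis) for the 303 genes called in ITGA6+ cells. Purple points are the 62 genes whose effect differed between the populations by test, grey points the other 241, and the dashed line marks equal effects. Lef1 lies near the line, Ntrk2 and S100a4 lie in the opposite quadrants.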

How the data were processed

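RNA of sorted cells was amplified and hybridised to Affymetrix Mouse Exon 1.0 ST arrays. The authors deposited linear intensity values, normalised by RMA, for 114330 probe sets. Affymetrix Power Tools and the mm9 build also stand in the submitters' processing notes. RMA partly removes a change shared by most genes. Here log2 was taken, 109796 probe sets (96.0%) with 1 symbol were kept, and probe sets of a gene were summarised by their median. Genes above the overall probe set median on 3 or more of 12 arrays were tested. Means of the 4 groups were fitted jointly with limma 3.58.1 (R 4.3.3, moderated, two-sided, Benjamini-Hochberg), so the SE rests on all groups. Each p-value sets a difference of group means against the moderated spread between arrays within the 4 groups. Whether that spread lies between single mice or pools is not given. Arrays have no read depth, so their number limits precision. On simulated data for this comparison (5712 genes, 200 changed), limma called 65.5% of log2 changes of size 1, 99.5% of size 2 and 0% of size 0.5. Of the calls made there, 8.39% were false at size 1 and 5.24% at size 2. The simulated noise was normal and independent, with the moderated SD of each gene, and all changes of a run had the same size. Shifts shared by the genes of an array were not simulated, so the rates on the real arrays may differ.

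The genes named are Lef1, Itga6 and Cd34, the 15 highest and 15 lowest differences among called genes, called members of each gene list, members with the lowest adjusted p where fewer than 3 were called, marker genes, and the largest differences of effect. The gene lists, members and rule were chosen with earlier results of these data known. Alternatives were another scaling (median centring, quantile), mean over probe sets, other filters, fewer arrays, another moderation and the replicate number as a block.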

Additional observations from a re-analysis of the deposited data

Results flagged for a closer look

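The genotype effect differed between ITGA6+ and CD34+ITGA6+ cells for 88 genes by a test of the difference itself (limma, Benjamini-Hochberg over all genes tested). Named genes among them are given with the effect in ITGA6+ cells minus that in CD34+ITGA6+ cells (log2 ± SE).

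Called in opposite directions in the 2 populations were, beside Arhgap24, Ntrk2 (-4.62 ± 0.33), S100a4 (3.52 ± 0.28) and Sparc (2.66 ± 0.38). Genes that fell in ITGA6+ cells, and fell less or were not called in CD34+ITGA6+ cells, were Serpinb2 (-3.08 ± 0.51), Dlx5 (-3.08 ± 0.59), Fam81a (-2.96 ± 0.57), Ackr2 (-2.69 ± 0.39), Chit1 (-2.62 ± 0.31), Egfl6 (-2.09 ± 0.44), Il12rb2 (-2.0 ± 0.46), Il34 (-1.95 ± 0.36), Il1r2 (-1.79 ± 0.38) and Slc6a4 (-1.79 ± 0.34). Smaller differences of this kind were those of Wnt16 (-1.31 ± 0.24), Il4ra (-1.17 ± 0.24), Gata3 (-1.11 ± 0.23) and Id4 (-1.07 ± 0.24). Genes that rose more in ITGA6+ cells were Cald1 (4.24 ± 0.27), Tagln3 (3.87 ± 0.39), Nme5 (2.77 ± 0.49), Serpine2 (2.76 ± 0.56), Pla2g4c (2.73 ± 0.37), Vldlr (2.70 ± 0.31), Fmo1 (2.68 ± 0.31), Igfbp2 (2.58 ± 0.34), Myef2 (2.39 ± 0.43), Cdo1 (2.37 ± 0.45) and Slc24a5 (2.35 ± 0.43). To these add Has3 (2.17 ± 0.31), Gsta3 (1.97 ± 0.40), Gstm2 (1.89 ± 0.41), S100a3 (1.66 ± 0.36) and Plxna4 (1.29 ± 0.25). Slc16a7 fell in both populations and fell further in CD34+ITGA6+ cells, a difference of 1.64 ± 0.33, although its ITGA6+ call was lost in 10 alternatives (adjusted p up to 0.192).

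For the remaining named genes the genotype call was made in CD34+ITGA6+ cells alone. Of these Pcolce2, Camk4 and Lrrn3 fell in CD34+ITGA6+ cells, with differences of effect of 4.31, 3.83 and 3.13. Apod, Aldh1a2, Crabp1 and Htra1 rose there, with differences of effect of -4.57, -4.22, -2.29 and -2.22. In ITGA6+ cells Pcolce2 lay between 4.52 and 5.20 on all 6 arrays and Aldh1a2 between 4.62 and 5.31, under the array medians.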

How the results depend on the processing

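No named gene called in ITGA6+ cells changed direction under the alternatives tried, and in each more genes were called lower than higher. The sign of named genes not called was not checked. Genes whose effect differed between populations were 46 above 0 and 42 below, but 18 and 31 with a filter at the upper quartile. Of the suprabasal list 3 rose and 2 fell, but 1 rose and 3 fell with that filter. Medians close to 0 did change sign: that of all genes tested ranged from -0.085 to 0.022, that of the actin list from -0.09 to 0.05 and that of the detoxification list from -0.1 to 0.15. Of the 98 named genes called in ITGA6+ cells, 62 stayed called in every alternative tried and 36 lost the call in at least 1, of which 35 did so when a single array was left out, and 11 of 92 named genes not called were called in some alternative. With 1 array left out, the genes called ranged from 193 to 226, those higher from 75 to 92, those lower from 105 to 141, and the genes whose effect differed between populations from 64 to 85. Totals fell by more than 1.5 times without WT replicate 3 (197) and without K14ΔNLef1 replicate 3 (193). A filter at the upper quartile, which tested 2327 genes, gave 174 called (59 higher, 115 lower) and 49 for the difference between populations. Averaging probe sets gave 407 genes called and 149 for that difference, and the cause was not tested. Other scalings, the remaining filters, the 6 ITGA6+ arrays alone and another moderation gave 291 to 353 genes called. Same-numbered ITGA6+ arrays did not deviate together between genotypes (r = -0.053, -0.076 and -0.055). Whether same-numbered arrays of ITGA6+ and CD34+ITGA6+ cells deviate together was not examined, so pairing between the populations stays unknown. With the replicate block, 293 genes were called, and 91 for the difference. Precision is limited by 3 arrays per group, and for genes near the array medians by signal.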
